A study of Mus musculus with 10 samples.

Results

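The genes examined were Klf2, Klf4 and Klf5, taken with every TET2 or FLAG peak that overlapped their spans or lay within 50 kb and had one of them as the nearest protein-coding gene. Merging the peaks of all lists gave 35 such regions, 7 for Klf2, 17 for Klf4 and 11 for Klf5, out of 79350 in all. The peaks came from ChIP-seq of mouse embryonic stem (ES) cells grown in serum with LIF, the GSK-3 inhibitor CHIR99021 and the MEK1 inhibitor PD0325901. Tet2 fl/fl cells (called wild type) and Tet2-/- cells (called knockout) were immunoprecipitated with a rabbit polyclonal antibody to N-terminal TET2. FLAG M2 affinity gel was used on Tet2 fl/fl cells whose endogenous TET2 carries a FLAG tag (FLAG-TET2), and on untagged parental Tet2 fl/fl cells. Each of these 4 groups had 2 libraries with 1 peak list each. The lists of wild-type and FLAG-TET2 cells are the target lists, and those of knockout and parental cells, where the epitope should be missing, the control lists. Whether a line was a single clone, and whether replicates were separate cultures, is not stated in the labels, so the spread between lists may be technical.

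Klf2, Klf4 and Klf5 encode zinc-finger transcription factors that bind GC-rich and CACCC-type DNA. In mouse ES cells they act partly redundantly to hold the naive pluripotent state, together with OCT4, SOX2, NANOG and ESRRB. Klf4 is a target of LIF and STAT3 signalling, KLF2 accumulates when MEK is inhibited, and Klf5 is needed in the early embryo for the inner cell mass and trophectoderm. TET2 is a dioxygenase that oxidises methylated cytosine, has no CXXC DNA-binding domain of its own and is found at many enhancers. A peak shows where chromatin was recovered with the antibody, and says nothing of the expression of the gene beside it.

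The starts of Klf2 and Klf4 both lay under peaks, so the 250 bases before each start are shown (RefSeq, GRCm38.p6, 5′ to 3′ on the strand of the gene). Capitals mark matches to GGGNGNGG on either strand, a pattern chosen for the KLF and SP family, and overlapping matches run together. The Klf2 window is chr8:72318812-72319061 on the plus strand and the Klf4 window chr4:55532476-55532725 on the minus strand.
Klf2: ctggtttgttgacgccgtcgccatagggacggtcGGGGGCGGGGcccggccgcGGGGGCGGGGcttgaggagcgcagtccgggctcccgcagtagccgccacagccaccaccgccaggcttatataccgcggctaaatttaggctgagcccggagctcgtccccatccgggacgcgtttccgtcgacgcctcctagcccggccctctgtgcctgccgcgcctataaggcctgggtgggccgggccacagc
Klf4: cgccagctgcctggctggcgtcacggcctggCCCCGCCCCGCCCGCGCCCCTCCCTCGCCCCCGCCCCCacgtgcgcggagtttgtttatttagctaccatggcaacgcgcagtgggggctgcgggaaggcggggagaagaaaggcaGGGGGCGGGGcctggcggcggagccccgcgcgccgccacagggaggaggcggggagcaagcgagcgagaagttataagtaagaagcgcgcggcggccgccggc
The Klf2 window with the 50 bases after the start held 4 matches, a number reached by 12.5% of 32851 RefSeq promoter windows of the same length. The Klf4 window held 9, a number reached by 1.66%, and 49.5% of all windows held at least 1. GC content was 69.3% for Klf2 and 74.3% for Klf4, against a median of 52.7%. Match counts were not compared at like GC content. The windows were rich in CpG, the dinucleotide whose methylated form TET enzymes act on, with 32 in Klf2 and 40 in Klf4 against a median of 7. Neither window held the octamer ATGCAAAT (found in 1.74% of windows) or the STAT pattern TTCNNNGAA (8.30%). A match is a description of letters and not a site in use.

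The lists differed widely in length, and the sequencing depth behind them is unknown. Target lists held 18820 to 63578 peaks and control lists 2259 to 36518. The shortest was knockout replicate 1, which had no peak assigned to any of the 3 genes. The longest control list was parental replicate 1, which had a peak in 16 of the 17 regions that held a control peak. Fold enrichments are the authors' values at the summit of a peak. They rank peaks within a list, as do the percentiles of −log10 q given here, and they are not a signal that can be compared between lists.

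Within 50 kb, the peak counts of Klf5 did not overlap between target and control lists, and those of Klf2 and Klf4 did. The order of the genes depended on this window, since within 10 kb the mean difference was 1.00 for Klf5 (exact permutation p = 0.17), 2.50 for Klf2 (p = 0.0556) and 1.25 for Klf4 (p = 0.50). Klf5 had 7 and 4 assigned peaks in wild-type replicates 1 and 2 and 10 and 6 in FLAG-TET2, against 0 and 0 in knockout and 3 and 2 in parental replicates. Every target list thus held more Klf5 peaks than every control list, a pattern shown by 6.19% of the 17182 genes with an assigned peak. The mean difference was 5.50 peaks, 6.75 in target and 1.25 in control lists (n = 4 and 4 lists, two-sided exact permutation within each reagent, p = 0.0556, adjusted p = 0.46 over all genes). That p is the smallest that the 36 arrangements can give, and 12.02% of genes reached it, so no gene could pass a threshold of 0.05.

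Klf2 had 3 and 2 assigned peaks in wild-type replicates, and 7 and 4 in FLAG-TET2 replicates, against 0 and 1 in knockout and 4 and 2 in parental replicates. Wild-type replicate 2 and parental replicate 2 held the same number. The mean difference was 2.25 peaks, 4 in target and 1.75 in control lists (exact permutation p = 0.11, adjusted p = 0.52), and 1.25 without FLAG-TET2 replicate 1. Klf4 had 6 and 4 peaks in wild-type replicates, and 13 and 4 in FLAG-TET2 replicates, against 0 and 3 in knockout and 12 and 0 in parental replicates. Its 12 peaks in parental replicate 1 exceeded 3 of the 4 target lists, and the mean difference was 3.00, 6.75 in target and 3.75 in control lists (exact permutation p = 0.39, adjusted p = 0.83). That difference was 0.917 without FLAG-TET2 replicate 1, 1.75 without knockout replicate 1 or without parental replicate 2, and 5.75 without parental replicate 1. With the TET2 antibody alone, both wild-type lists held more peaks than both knockout lists for each of the 3 genes, as they did for 36.6% of all genes. Both knockout lists (2259 and 11696 peaks) were shorter than both wild-type lists (38536 and 18820). The like comparison with FLAG gel did not hold for Klf2 or Klf4. There parental replicate 1 had 4 and 12 peaks, and FLAG-TET2 replicate 2 had 4 for each gene. Over all tested genes the median difference between target and control lists was 0.75 peaks.

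List length moved with these counts. Per 1000 peaks of the list, the mean difference for Klf2 was 0.0108 (exact permutation p = 0.72), for Klf4 0.0323 (p = 0.78) and for Klf5 0.121 (p = 0.11). On that scale the Klf5 values of target and control lists overlapped. Parental replicate 2 had 0.198, above wild-type replicate 1 (0.182) and FLAG-TET2 replicate 1 (0.157). It was below wild-type replicate 2 (0.213) and FLAG-TET2 replicate 2 (0.212). With each list shortened to its 2259 leading peaks, Klf2 kept 2 and 2 peaks in wild-type replicates, and 1 and 1 in FLAG-TET2 replicates, and none in the 4 control lists. Klf4 kept 2 and 1 in wild-type replicates and none in the other 6 lists. Klf5 kept none in any list, so its many peaks were all below the leading ones, while the peaks near Klf2 included some of the strongest in each target list.

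**Figure D1:**
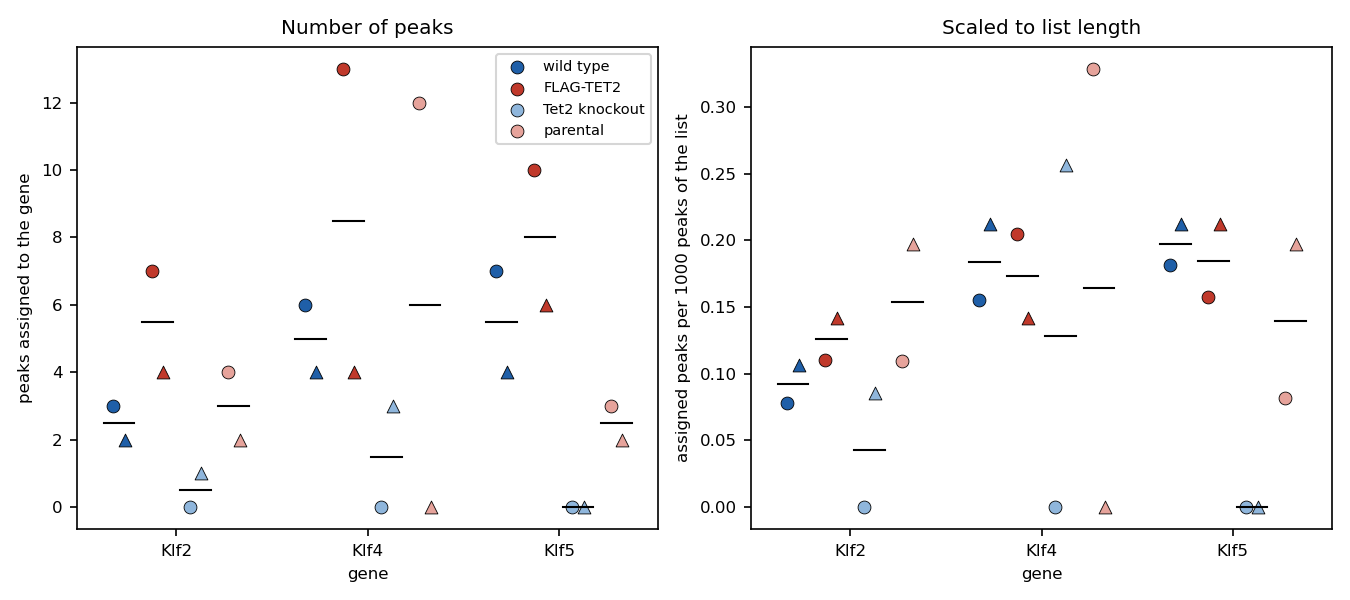
Number of peaks assigned to Klf2, Klf4 and Klf5 in each list (left axis) and the same number per 1000 peaks of the list (right panel). Circles are replicate 1, triangles replicate 2 and bars group means (2 lists each). For Klf5 the 4 target lists hold 4 to 10 peaks and the control lists 0 to 3. Per 1000 peaks, parental replicate 2 (0.198) lies within the Klf5 range of the target lists (0.157 to 0.213).

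Of the 35 regions, 8 had a peak in all 4 target lists (22.9%, against 15.0% of all merged regions). Of these, 3 had no peak in any control list and are called common TET2 regions (8.57%, against 5.70%). The share of common regions among those in all 4 target lists was 37.5%, against 37.9% for all regions, which is near the background. A control peak lay in 17 of the 35 regions (48.6%, against 50.7%), again near the background. Knockout replicate 2 had a peak in 3 of the regions, parental replicate 1 in 16 and parental replicate 2 in 2. Of the 35 regions, 16 were seen in a single list, 8 of them in FLAG-TET2 replicate 1, the longest list, 5 in parental replicate 1, 2 in wild-type replicate 1 and 1 in knockout replicate 2. The share of single-list regions over all merged regions was not taken, so whether 16 is many or few is unknown. All 9 regions of wild-type replicate 2 were also in replicate 1, and all 10 of FLAG-TET2 replicate 2 were in its replicate 1. The same held for the 2 regions of parental replicate 2. Replicate 1 had the longer list in each of these groups, and the like share over all merged regions was not taken.

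Klf2 and Klf5 were nearest gene of a common region and Klf4 was not. Among the 17169 genes with a merged region, 17.3% had at least 1 common region and 4.23% at least 2. The 3 genes had 7, 17 and 11 merged regions against a median of 3 per gene, and a gene with more regions has more chances to hold a common one.

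**Figure D2:**
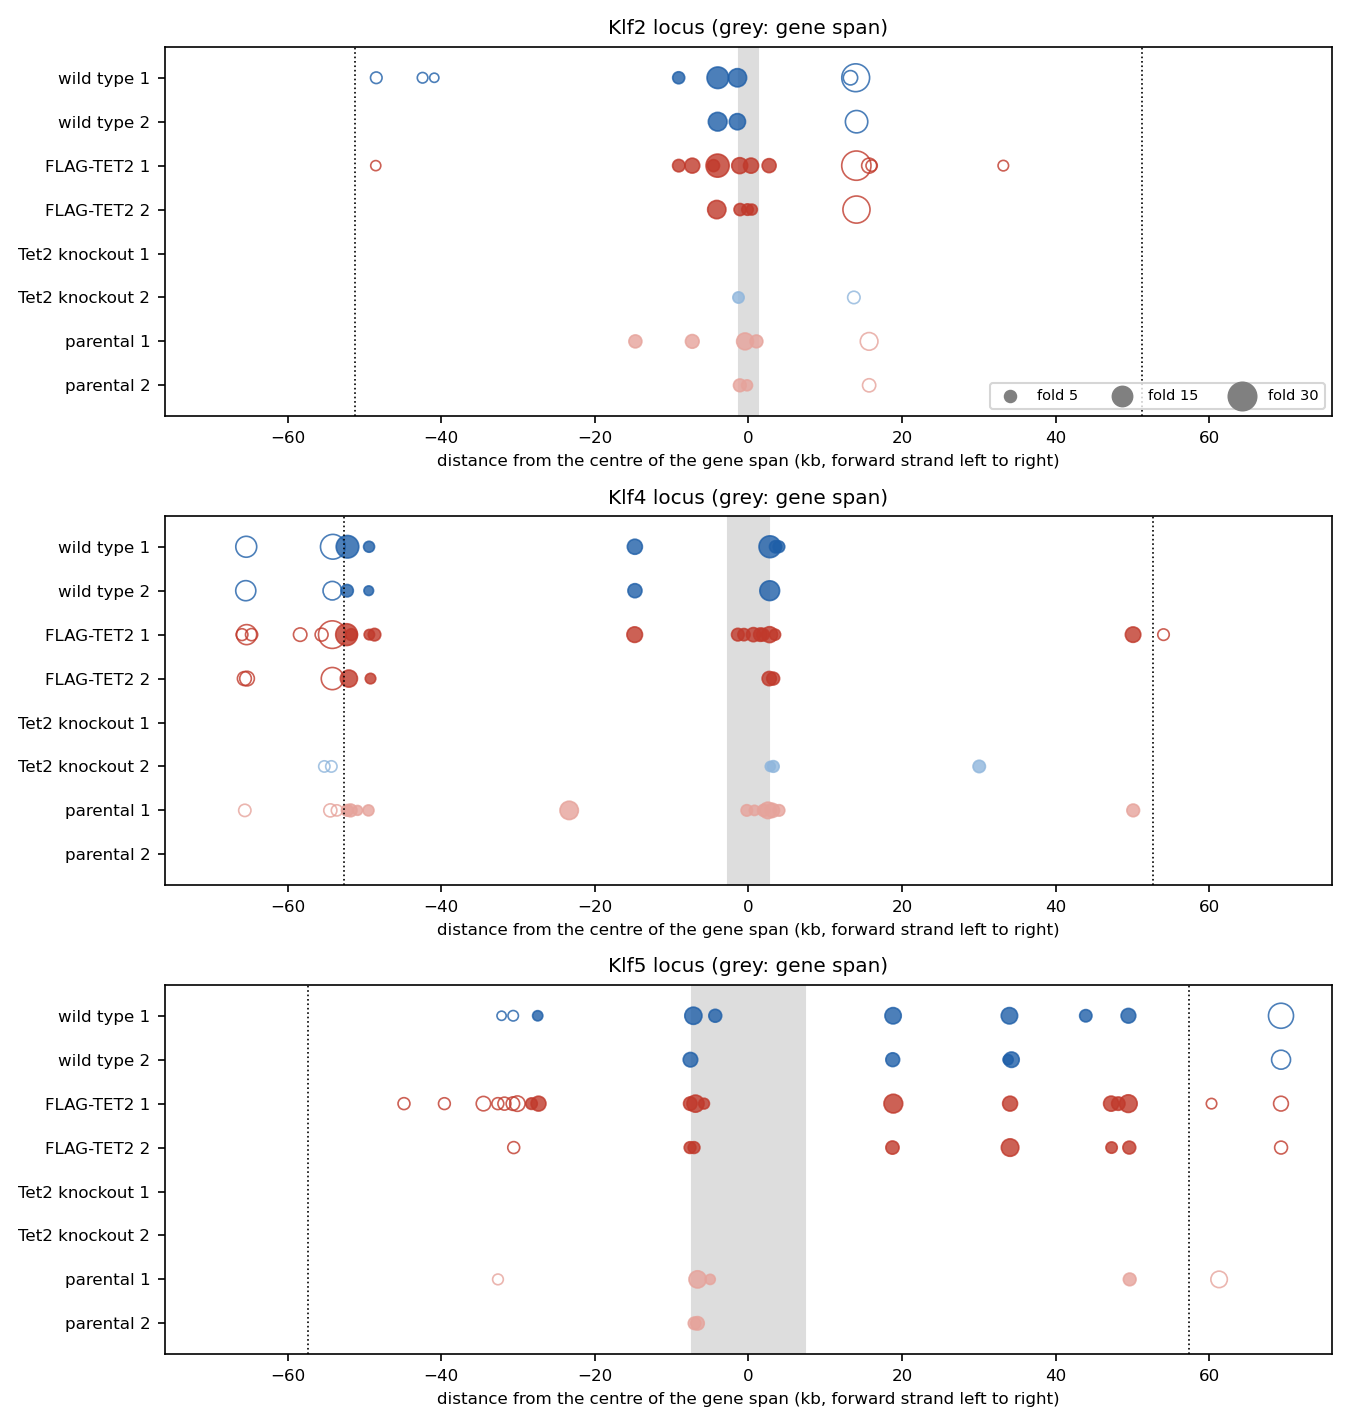
Peaks of the 8 lists along the loci of Klf2, Klf4 and Klf5, by distance in kb from the centre of the gene span (grey). Each circle is a peak with an area in proportion to the authors' fold, filled where its region was assigned to the gene and open where another gene was nearer or the distance was over 50 kb (dotted lines). Knockout replicate 1 has no peak in any panel.

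The common region of Klf2 lay 2.37 kb upstream of the gene (chromosome 8, 72316041 to 72316689, mm10, 649 bp, outside the gene span). It was among the leading peaks of each target list, at percentiles of 98.8 and 98.9 in wild-type replicates, and 96.9 and 92.8 in FLAG-TET2 replicates. The authors' folds there were 17.9 and 13.3 for wild type, and 20.5 and 12.8 for FLAG-TET2. The 4 summits fell within 30 bp of each other. By the mean percentile the region ranked 45 of the 4521 common regions. The same region was common in the shortened lists, but not when the peaks of a list had to cover at least 50% of it. It was also common with a −log10 q minimum of 5 and without each single list in turn. Those settings could not have removed it. Its peaks had −log10 q values of 39.1 to 80.8, and leaving out a list only eases the rule.

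A second Klf2 region covered the start and body of the gene (72318612 to 72321528, 2917 bp) and had peaks in the 4 target lists and in 3 control lists. Its strongest peaks had folds of 12.8 and 10.0 in wild-type replicates, and 9.74 and 5.62 in FLAG-TET2 replicates, against 4.91 in knockout replicate 2 and 10.9 and 6.25 in parental replicates. The positions differed within the region. The summits of the strongest peaks lay at -235 and -123 bp from the start (upstream) in wild-type replicates, and at 139 and 148 bp (inside the gene) in FLAG-TET2 replicates. The parental summits, at 133 and 105 bp inside, fell beside those of FLAG-TET2, and the knockout replicate 2 summit was 30 bp inside. FLAG-TET2 and parental lists also had weaker peaks farther into the gene, such as those with summits at 1170 and 1163 bp in FLAG-TET2 and 1120 bp in parental replicate 2.

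The other 5 Klf2 regions were seen in 1 or 2 lists. A region 7.63 kb upstream was in wild-type replicate 1 (fold 5.55) and FLAG-TET2 replicate 1 (5.90). A region 5.93 kb upstream was in FLAG-TET2 replicate 1 (fold 8.52) and in parental replicate 1 (7.18), and one 13.4 kb upstream in parental replicate 1 alone (6.48). Both remaining regions were in FLAG-TET2 replicate 1 alone, with folds of 5.58 at 3.19 kb upstream and 7.51 at 1.23 kb downstream. The percentiles of these 5 regions in the lists that held them ran from 28.4 to 70.7.

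The strongest region close to Klf2 was not assigned to it. It lay 12.3 kb beyond the 3′ end of Klf2 (chromosome 8, 72333959 to 72334684) but 6.31 kb from Eps15l1, an endocytic adaptor gene whose start is at its far end. Its folds were 29.7 and 19.2 in wild-type replicates, and 32.9 and 28.2 in FLAG-TET2 replicates, at percentiles of 98.1 to 99.9. Knockout replicate 2 had a 144 bp peak at the edge of the region (fold 5.93), with its summit 304 bp from the nearest target summit. Parental lists had none there. By the rule on control peaks it was therefore not a common region, and peaks alone do not tell which gene a distal region acts on.

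Klf4 had no common region, although strong target peaks lay at its start and at a distal cluster. The region at the start (chromosome 4, 55532000 to 55533124, 1125 bp) overlaps the end of the span from which the gene is read. Its folds were 18.3 and 15.0 in wild-type replicates, and 9.75 and 7.75 in FLAG-TET2 replicates, against 5.20 in knockout replicate 2 and 10.4 in parental replicate 1. Knockout replicate 1 and parental replicate 2 had no peak there. The wild-type peaks ranked at percentiles 96.7 and 97.8, the FLAG-TET2 peaks at 77.7 and 66.9, the knockout peak at 19.8 and the parental peak at 77.3. The target summits of the strongest peaks were close together, at -88 and -65 bp from the start in wild-type replicates and -154 and -77 bp in FLAG-TET2 replicates, all upstream. The parental replicate 1 summit was 25 bp inside the gene. Knockout replicate 2 had its strongest summit farther out, at -574 bp, and a weaker one at -160 bp (fold 3.86, percentile 3.49). The summit at -574 bp was 38 bp from that of a weaker FLAG-TET2 replicate 2 peak, at -536 bp (fold 6.34). Parental replicate 1 had a weaker peak with its summit at -322 bp (fold 7.73).

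**Figure D3:**
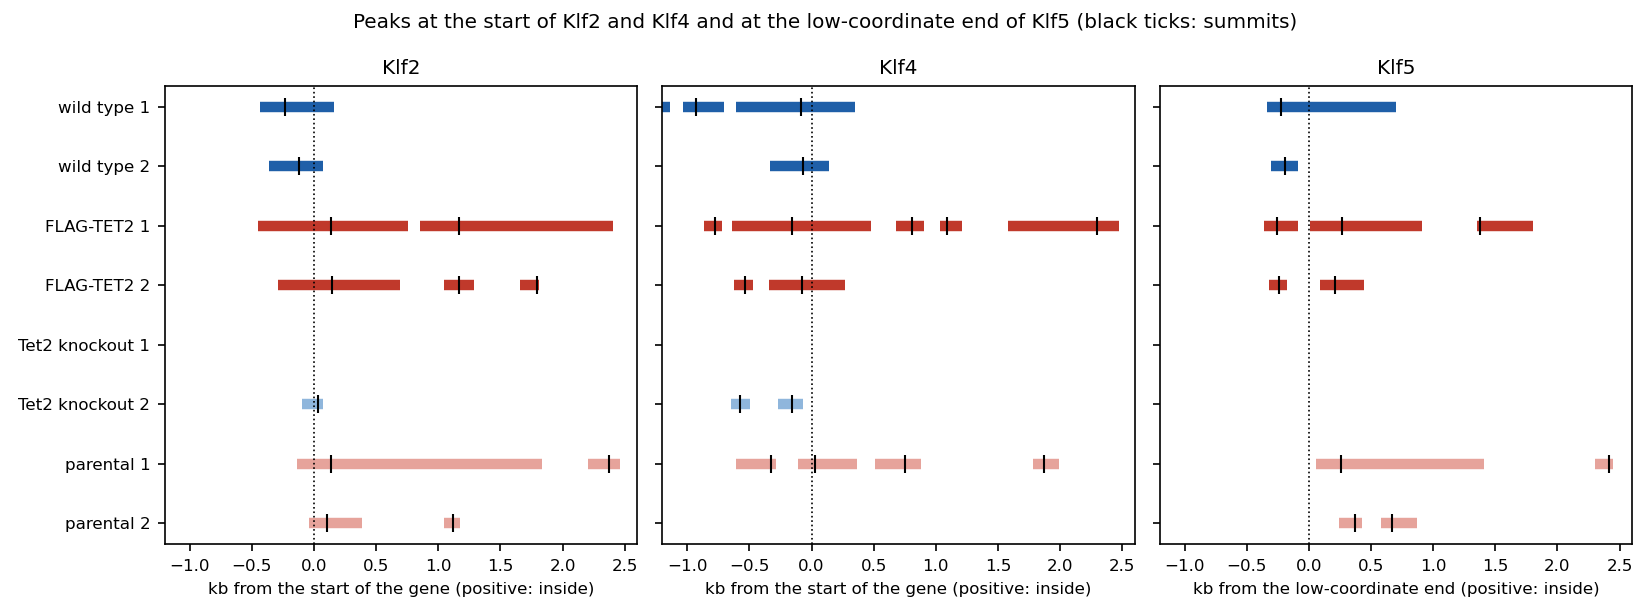
Peaks around the start of Klf2 and Klf4 and around the low-coordinate end of Klf5, with the distance in kb on the horizontal axis and 1 row per list. Bars are peaks and black ticks their summits. At Klf2 the wild-type summits lie upstream of the start and the FLAG-TET2 and parental summits inside the gene.

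The distal cluster lay downstream of Klf4, on the far side of the 3′ end, and crossed the 50 kb limit. A group of distal enhancers downstream of Klf4 is known in mouse ES cells, and whether these peaks coincide with it was not tested. Inside the limit, a region 48.9 kb away (55477135 to 55478273) showed folds of 19.6 and 5.93 in wild-type replicates, and 18.2 and 11.2 in FLAG-TET2 replicates, against 6.27 in parental replicate 1. A region 46.4 kb away (55480118 to 55480704) was weak in all lists that held it, with folds of 4.61 and 3.56 in wild-type replicates, and 4.16 and 4.24 in FLAG-TET2 replicates, against 4.63 in parental replicate 1. Just outside, a region 51.0 kb away (55475233 to 55476092) showed folds of 23.5 and 13.2 in wild-type replicates, and 29.2 and 18.9 in FLAG-TET2 replicates, against 4.95 in knockout replicate 2 and 6.58 in parental replicate 1. A region 62.3 kb away (55464047 to 55464810) showed folds of 16.8 and 15.5 in wild-type replicates, and 15.4 and 8.22 in FLAG-TET2 replicates, against 5.81 in parental replicate 1.

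In the regions 48.9, 51.0 and 62.3 kb away, the strongest peak of each target list ranked at a percentile of 72.3 to 99.3 in its own list, and the strongest of each control list that had one at 10.8 to 35.6. Weaker target peaks lay there too, such as the other FLAG-TET2 replicate 1 peak of the region 48.9 kb away (fold 5.34, percentile 24.9). The region 46.4 kb away did not show this contrast. Its percentiles were 31.5 and 3.49 in wild-type replicates, and 14.9 and 27.8 in FLAG-TET2 replicates, against 21.8 in parental replicate 1. Without parental replicate 1, both Klf4 regions inside the limit were common, at 48.9 and 46.4 kb. The count of 0 for Klf4 thus rests on that list, and without FLAG-TET2 replicate 2 it was 1.

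One more Klf4 region, 11.9 kb downstream (55514749 to 55515267), had no control peak. Its folds were 8.68 and 7.57 in wild-type replicates and 9.31 in FLAG-TET2 replicate 1. FLAG-TET2 replicate 2 had no peak there, and the 3 summits lay within 56 bp. The remaining 13 regions of Klf4 were in 1 or 2 lists. Of these, 7 held a peak of parental replicate 1, with folds of 3.70 to 12.97 there, and 1 a peak of knockout replicate 2, 27.3 kb upstream (fold 5.92). Of the 7, 2 lay 48.2 and 20.6 kb downstream, 3 within the gene and 2 upstream, at 1.14 and 47.3 kb.

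The 2 common regions of Klf5 lay beyond the high-coordinate end of the gene (chromosome 14, 99298691 to 99313412), in the long stretch before Klf12, the next gene at 553 kb. The first was 11.2 kb from the span (99324650 to 99325151, 502 bp). Its folds were 10.2 and 7.32 in wild-type replicates, and 13.5 and 6.70 in FLAG-TET2 replicates, at percentiles of 59.3 to 89.3. The second was 26.3 kb away (99339676 to 99340569, 894 bp). Its folds were 10.3 and 9.14 in wild-type replicates, and 8.49 and 11.7 in FLAG-TET2 replicates, at percentiles of 76.3 to 85.8. They ranked 1853 and 1338 among the 4521 common regions by mean percentile, far below the Klf2 region.

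In the first region the leading target summits spread over 150 bp and in the second over 397 bp. In the second, FLAG-TET2 replicate 1 had its leading summit apart from the other 3, at the low-coordinate side (99339916). Wild-type replicate 2 had a weaker second peak on that side too, with its summit at 99339961 (fold 3.98).

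**Figure D4:**
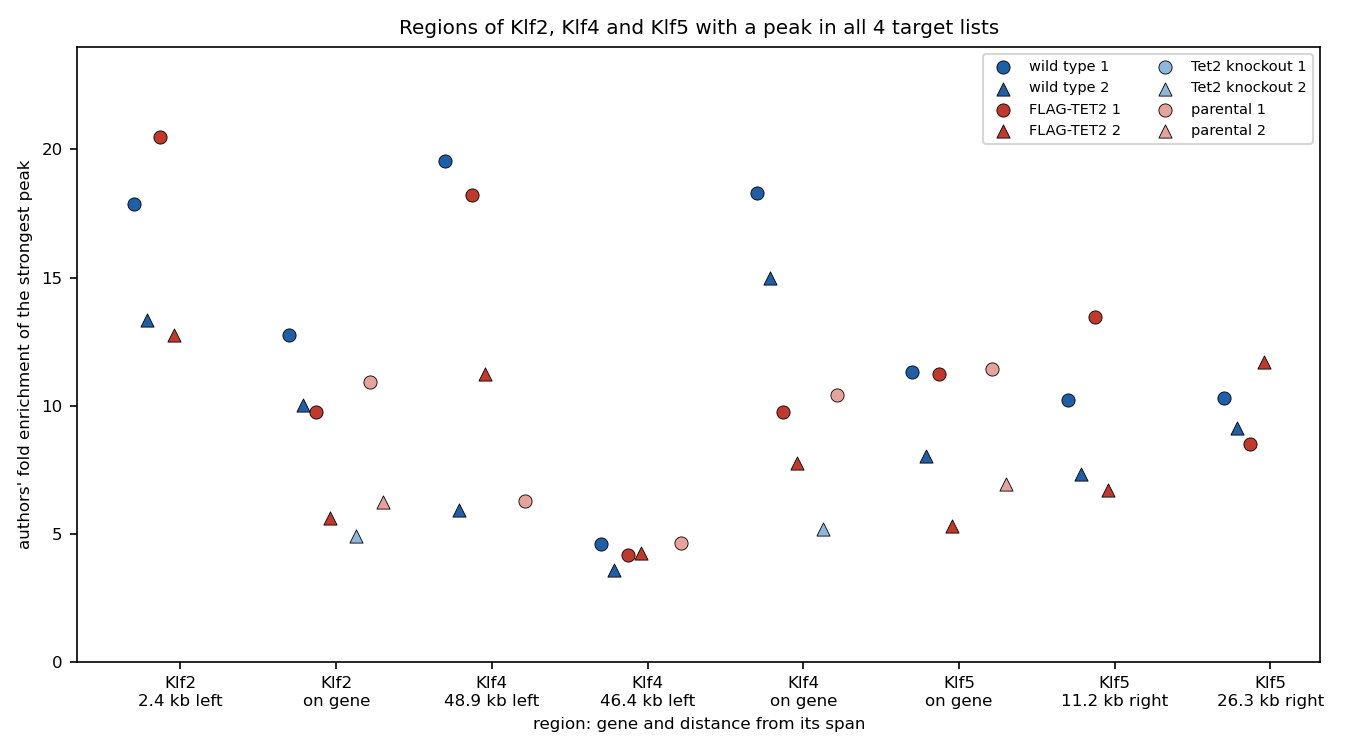
Authors' fold of the strongest peak of each list in the 8 regions of Klf2, Klf4 and Klf5 that had a peak in all 4 target lists, with the region named by its gene and its distance from the span in the direction of the forward strand. Colours are groups, circles replicate 1 and triangles replicate 2. No light-coloured control symbol stands at the Klf2 region 2.4 kb away or at the Klf5 regions 11.2 and 26.3 kb away.

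The low-coordinate end of Klf5 was covered by another region in all 4 target lists (99298333 to 99300497, 2165 bp). Its strongest peaks had folds of 11.3 and 8.04 in wild-type replicates, and 11.2 and 5.29 in FLAG-TET2 replicates, against 11.4 and 6.94 in parental replicates, with none in knockout replicates. The peaks inside this region were not in the same place. All 4 target lists had a summit just outside the span, at -227 and -192 bp in wild-type replicates and -254 and -244 bp in FLAG-TET2 replicates, where no control list had one. These outside peaks were the weaker ones in FLAG-TET2 replicates, with folds of 6.90 and 5.24 at percentiles of 49.4 and 21.2. The strongest FLAG-TET2 peaks lay inside the span, with summits at 268 and 211 bp (percentiles 81.0 and 46.1). The strongest parental summits were at 255 and 672 bp, and parental replicate 2 had a weaker one at 372 bp (fold 5.98). Counted over 200 bp windows around summits, the outside position held a peak of all 4 target lists and of no control list, as did the first region above, while the second region did not.

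Among the other Klf5 regions, one 41.8 kb beyond the high-coordinate end (99355249 to 99355810) showed folds of 8.25 in wild-type replicate 1, and of 11.95 and 6.34 in FLAG-TET2 replicates, against 6.19 in parental replicate 1. A weak peak inside the gene was in parental replicate 1 alone (fold 3.98). The other 6 were in 1 or 2 target lists. Knockout lists had no peak at any of the 11 regions. Beyond the limit, 61.8 kb from Klf5 (99375248 to 99375572), a region with target peaks in all 4 lists and no control peak had folds of 24.1 and 13.8 in wild-type replicates, and 8.36 and 6.34 in FLAG-TET2 replicates. Within their own lists these peaks ranked at percentiles of 99.03 and 96.7 in wild-type replicates, and 60.8 and 41.7 in FLAG-TET2 replicates.

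At the starts of Klf2 and Klf4 and the low-coordinate end of Klf5, the strongest peaks of parental replicate 1 ranked at percentiles of 91.6, 77.3 and 83.3. A peak 20.6 kb downstream of Klf4 ranked at 87.7 in that list and was in no other. In the Klf4 regions 48.9 and 46.4 kb away it had percentiles of 31.5 and 21.8. Over all peaks assigned to the 3 genes, median percentiles were 73.6 and 74.7 in wild-type replicates, 57.2 and 43.9 in FLAG-TET2 replicates, 24.2 in knockout replicate 2 and 28.8 and 33.5 in parental replicates. These values mix few peaks with lists of unequal length and were not tested.

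Other genes of the family and of the naive network were read in the same way, with lists chosen while earlier results of these data were known. Of 23 other KLF and SP genes, 22 had a merged region and 11 of these had a common region (50.0%, against 17.3% of all genes). They were Klf3, Klf6, Klf8, Klf9, Klf10, Klf13, Klf15, Sp1, Sp2, Sp3 and Sp7. Klf9 and Sp2 had 3 each, Klf13 and Sp1 had 2 and the others 1. Klf3, which encodes a repressor of the family, had the one with the highest folds among the leading regions of these genes, 31.7 kb from the gene (chromosome 5, 64864641 to 64865171), with 23.7 and 13.5 in wild-type replicates, and 23.1 and 9.91 in FLAG-TET2 replicates. These genes had a median of 6.5 merged regions and 0.5 common ones, and 2 of the 22 had more peaks in every target than in every control list, which is near the 6.19% of all genes.

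Of 15 partners in the naive network, all had a merged region and 8 had a common one (53.3%, against 17.3% of all genes), namely Esrrb, Pou5f1, Sox2, Tbx3, Tfcp2l1, Prdm14, Sall4 and Dppa3. Esrrb, an orphan nuclear receptor gene, had 5 and Tfcp2l1 had 4, more than any of the 3 KLF genes. Nanog, Zfp42, Nr0b1, Stat3, Gbx2, Nr5a2 and Fgf4 had none. The partners had a median of 12 merged regions, against 3 over all genes, so the shares are not those of genes with like numbers of regions. More peaks in every target than in every control list were held by 3 of the 15, against 6.19% of all genes.

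The genes most like each KLF gene were found by the sum over the 8 lists of absolute differences in the number of assigned peaks. Slc35f3, Usp10 and Tet3 differed from Klf2 by 1 peak in all, and had 2, 1 and 1 common regions against 1 for Klf2. Malt1 and Gm5820 differed from Klf5 by 2 peaks and Rnf125 by 3, with 2, 3 and 2 common regions against 2 for Klf5. Klf4 had no close match, with Robo1 at 7 peaks and Ncoa1 and Naaladl2 at 8 (0, 0 and 2 common regions against 0). This likeness is one of counts in lists of unequal length and describes no shared function.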

How the data were processed

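TET2 and FLAG ChIP-seq of mouse ES cells was analysed from 8 peak lists, each called in 1 library. Input and IgG libraries were not analysed here. Per the submitters' processing notes, the tools were Bowtie2 and Trimmomatic, MACS2, DESeq2 and DiffBind, with no version or role, and the build mm10. Peak names hold q10, rmChrM, rmDUP and IgG. Each deposited peak has a score (−log10 q times 10, as a whole number), a fold enrichment (linear ratio), −log10 p and −log10 q values and a summit offset, all from the authors. Read counts and depth are unknown.

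Peaks on 21 chromosomes were kept and merged where they shared 1 bp. Peaks and regions were given to the nearest of 21887 protein-coding spans of RefSeq GRCm38.p6, the assembly behind mm10, within 50 kb. This table gives no strand, and that of Klf2 and Klf4 came from RefSeq promoter windows, which matched 2 of the 3 genes. Peaks per list were compared by an exact permutation test within reagent (36 arrangements) with Benjamini-Hochberg adjustment over all genes, tested on simulated data. Regions were named if in all 4 or in 3 target lists, or in any control list. Most-like genes were chosen by peak counts, ties by percentile. Members, lists and motifs were chosen with earlier results of these data known. Alternatives changed the threshold, list length, window, overlap, controls, scale and pairing. Python 3.11.15, pandas 2.3.3 and numpy 2.4.6 were used.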

Additional observations from a re-analysis of the deposited data

How the results depend on the processing

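The mean difference in peaks was positive for Klf2, Klf4 and Klf5 in each alternative run, except 0 for Klf5 in lists of equal length. No difference passed the exact permutation test, which cannot give a p below 0.0556. Per 1000 peaks of the list, the highest values were in control lists for Klf2 (parental replicate 2, 0.198) and Klf4 (parental replicate 1, 0.329). Knockout replicate 1 had 0 for each gene, and parental replicate 2 had 0 for Klf4. Leaving out 1 list gave 1.25 to 3.00 peaks for Klf2, 0.917 to 5.75 for Klf4 and 4.42 to 6.42 for Klf5, with the lowest value of each without FLAG-TET2 replicate 1. The replicate block left the differences at 2.25, 3.00 and 5.50 with an exact permutation p of 0.125 for each gene, the smallest that 4 pairs allow. Replicate numbers were not taken as pairs, since the deviations of same-numbered lists correlated at -0.108 over genes between wild type and knockout and at 0.213 between FLAG-TET2 and parental lists. With the knockout numbers crossed, a choice made after seeing the data, the p was again 0.125 for each.

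The counts of common regions were 1 for Klf2, 0 for Klf4 and 2 for Klf5. Klf2 had 0 when the peaks of a list had to cover at least 50% of the region. Klf4 had 2 with knockout lists as the only controls. Klf5 had 0 in lists of equal length and 0 within 10 kb, as the construction of both settings leaves fewer peaks. Leaving out 1 list gave 1 to 1 for Klf2, 0 to 2 for Klf4 and 2 to 3 for Klf5. For Klf4 this was 1 without FLAG-TET2 replicate 2 and 2 without parental replicate 1. Since leaving out a list only eases the rule, these counts could stay or rise but could not fall. Taking all regions within 50 kb whichever gene was nearest, also chosen after seeing the data, left these counts as they were, and gave mean differences of 4.50 peaks for Klf2, 3.00 for Klf4 and 7.75 for Klf5. Within 10 kb the differences were 2.50, 1.25 and 1.00, and within 100 kb 2.25, 5.25 and 6.50. Windows of 200 bp around summits also gave 2 common regions for Klf5, of which 1 was not among those of the merged peaks.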
